A study of Mus musculus with 16 samples.

Results

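The proteasome genes described here were all entries of the deposited gene tables whose gene name begins with Psm, one of the letters a to g and a digit. The rule took in 50 of 24421 gene names. One of them, Psmc3ip, matches by name only (it encodes a recombination factor of meiosis), was kept apart, and left 49 proteasome genes: 19 of the 20S core (8 Psma and 11 Psmb), 6 ATPases (Psmc) and 24 of the lid and regulators (14 Psmd, 5 Psme, 1 Psmf and 4 Psmg). Each had 1 entry in every table, and all 49 passed the filter on low values (a mean of 0.1 TPM or more, where TPM is the share of transcripts corrected for gene length).

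The dentate gyrus, the part of the hippocampus whose stem cells generate new granule neurons, was isolated from one-year-old male C57BL/6 mice, either wild-type (p16Ink4a +/+) or knockout (p16Ink4a -/-) for the cell cycle inhibitor p16Ink4a, and its RNA was sequenced in 16 libraries. Mice were sedentary (p16 WT CTL and p16 KO CTL) or had run freely on a wheel for 12 days (p16 WT RUN and p16 KO RUN), with 4 libraries for each group. The knockout line was made in FVB mice, bred onto C57BL/6 and keeps a functional p19Arf. Each library pooled 2 mice, so the spread between libraries is not that between single animals. Set A was p16 KO RUN compared with p16 KO CTL. Set B took p16 KO CTL and Set C p16 WT RUN, each compared with p16 WT CTL. Set D compared p16 KO RUN with p16 WT CTL, and Set E compared it with p16 WT RUN. Running, genotype and their interaction were also fitted over all libraries. Sets that share a group are not independent of each other.

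The proteasome is the protease that degrades proteins tagged with ubiquitin. Its barrel-shaped core holds the cutting sites, the regulatory particle with its ATPase ring and lid recognises, unfolds and feeds in the tagged proteins, and alternative caps such as the PA28 complex (Psme1 and Psme2) open the core without ATP. In cells exposed to interferon, 3 catalytic subunits are exchanged for Psmb8, Psmb9 and Psmb10 to give the immunoproteasome, whose peptides are loaded on MHC class I, and in neurons the proteasome takes part in synaptic plasticity and in the removal of damaged proteins.

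The granule neuron markers Prox1 (58.1 to 187 TPM over the 16 libraries) and C1ql2 (199 to 610 TPM) were present in every library, whereas Cdkn2a, the gene that encodes p16Ink4a, lay at 0 to 0.586 TPM in all groups and so did not check the genotype labels. The running libraries were shallower (relative median coverage 0.685 to 0.995, where the median library is at 1) than the sedentary ones (1.01 to 2.07), so depth and running cannot be told apart. The sedentary libraries p16 WT CTL replicate 2 and p16 KO CTL replicates 6 and 7 stood apart with little RNA of the kind kept in the nucleus: 8 such RNAs (Malat1, Neat1, Meg3 and others) summed to 977, 541 and 479 TPM there and to 1828 to 2533 TPM in the other libraries. Because bulk tissue was sequenced, fewer cells of a type and less RNA per cell cannot be told apart.

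The members on which the results turn are Psme1 and Psme2, the alpha and beta subunits of PA28, and Psme4, the single-chain cap PA200. Psme1 (chr14:55578494-55581527, plus strand, mm10) and Psme2 (chr14:55587440-55591101, minus strand) are neighbours on chromosome 14, and Psme4 (chr11:30771775-30880361, plus strand) lies on chromosome 11. Their promoter windows, from RefSeq on GRCm38.p6 (the mm10 build), run from 250 bases before to 50 bases after the start of the gene and are printed on the gene's strand, because these 3 members moved with running in different directions. Capitals mark a match, on either strand, to the interferon-stimulated response element (ISRE, searched as GAAA, any 2 bases and GAAA) or to the antioxidant response element (searched as TGACNNNGC).
Psme1 (chr14:55578244-55578543, plus strand): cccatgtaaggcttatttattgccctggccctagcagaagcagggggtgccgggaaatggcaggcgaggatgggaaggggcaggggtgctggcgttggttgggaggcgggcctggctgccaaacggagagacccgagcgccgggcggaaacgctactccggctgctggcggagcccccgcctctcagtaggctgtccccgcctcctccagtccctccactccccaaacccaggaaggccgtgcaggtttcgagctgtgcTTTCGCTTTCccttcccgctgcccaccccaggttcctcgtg
Psme2 (chr14:55591052-55591351, minus strand): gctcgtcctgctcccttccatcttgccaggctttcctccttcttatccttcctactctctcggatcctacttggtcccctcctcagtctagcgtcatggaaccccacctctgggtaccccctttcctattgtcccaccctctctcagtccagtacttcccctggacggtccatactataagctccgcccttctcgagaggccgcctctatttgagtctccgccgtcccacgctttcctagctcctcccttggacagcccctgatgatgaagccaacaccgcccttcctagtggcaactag
Psme4 (chr11:30771525-30771824, plus strand): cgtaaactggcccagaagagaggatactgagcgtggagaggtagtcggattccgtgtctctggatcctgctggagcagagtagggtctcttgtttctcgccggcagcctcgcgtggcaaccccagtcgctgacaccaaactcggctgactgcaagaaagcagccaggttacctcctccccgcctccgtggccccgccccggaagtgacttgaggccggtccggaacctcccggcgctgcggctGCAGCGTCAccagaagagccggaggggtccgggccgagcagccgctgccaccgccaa

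The window of Psme1 held 1 match to the interferon element, TTTCGCTTTC, which begins 9 bases after the start of the gene. That of Psme4 held 1 match to the antioxidant element, GCAGCGTCA, and that of Psme2 held neither. Promoter windows were matched by name for 41 of the 49 members (Psma8, Psmb1, Psmb2, Psmb7, Psmc3, Psmd3, Psmd7 and Psmg2 had none), and 38 of them have a start within 50 bases of the start in the deposited tables. The interferon element was found in 5 of the 41 windows (12.2%: Psmb3, Psmd4, Psmd9, Psme1 and Psmg4) and in 3.44% of 32851 promoter windows of the same length, and the antioxidant element in 6 (14.6%: Psmb5, Psmb6, Psmc6, Psmd12, Psmd9 and Psme4) and in 12.4%. The CCAAT box, searched as CCAAT, was found in 13 windows (31.7%) and in 37.4%. None of these 3 motifs overlapped another in the windows printed.

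Most subunits lay within a narrow range of levels. The ATPase Psmc5 was highest, with a mean of 305 TPM over the 16 libraries, followed by the ATPase Psmc3 (285 TPM) and the core subunits Psmb4 (282 TPM) and Psmb7 (279 TPM). The 7 general subunits of the alpha ring, which gates the core, had means of 103 TPM (Psma5) to 224 TPM (Psma2). The ATPases, which unfold the substrate, spanned 130.1 TPM (Psmc6) to 305 TPM (Psmc5), and 11 of the 14 Psmd genes spanned 97.7 TPM (Psmd11) to 228 TPM (Psmd2, a scaffold of the base). The other Psmd genes encode chaperones of the assembly of the base, and all were lower: Psmd5 at 63.9 TPM, Psmd9 at 28.3 TPM and Psmd10 at 24.7 TPM. The 4 Psmg chaperones, which assemble the core, lay at 25.8 TPM (Psmg3) to 34.4 TPM (Psmg1), in the same range as those of the base other than Psmd5. At the low end stood the tissue-restricted core subunits Psma8, known from testis, with a mean of 0.248 TPM and 0 TPM in 5 libraries, and Psmb11, known from thymus, at 0.562 TPM.

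**Figure D1:**
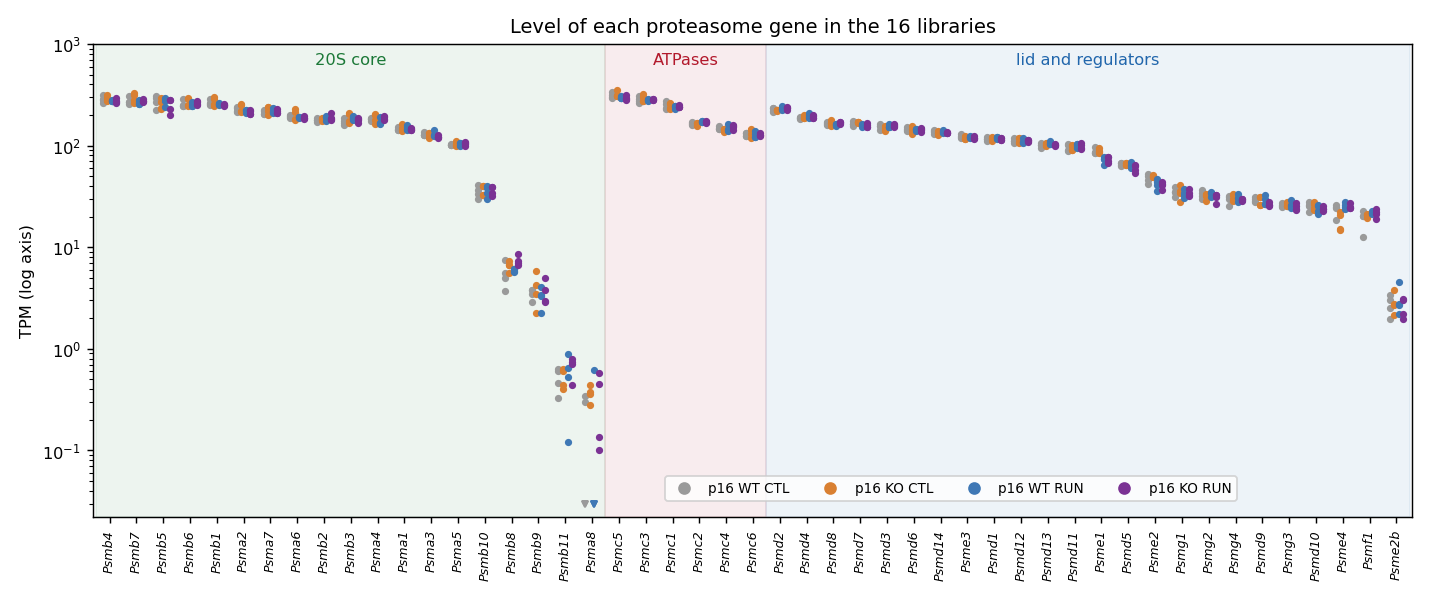
Level in TPM (log axis) of the 49 proteasome genes in each of the 16 libraries, coloured by group and ordered by class and mean level; values of 0 are drawn as triangles at the bottom. Core, ATPase and lid subunits lie near 100 to 300 TPM, and the immunoproteasome subunits, assembly chaperones, Psme4, Psmf1, Psmb11 and Psma8 lie below.

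The sum over the 19 core genes in p16 WT CTL was 2944 ± 153 TPM (SD, n = 4), against 3032 ± 211 in p16 KO CTL, and after running it was 2923 ± 53.5 (p16 WT RUN) and 2900.05 ± 27.7 (p16 KO RUN). These group means differed by less than the spread within the sedentary groups. The 3 highest libraries of all, at 3154, 3218 and 3210 TPM, were p16 WT CTL replicate 2 and p16 KO CTL replicates 6 and 7, the ones low in nuclear RNA, and without them the sedentary means were 2874 TPM (p16 WT CTL) and 2851 TPM (p16 KO CTL). The ATPase sum moved in the same narrow way, from 1226 to 1379 TPM over the libraries, and its 3 highest values fell in the same libraries. As deposited, the sum of the lid and regulators lay between 2098 and 2194 TPM in every library. After the scaling used for the tests it was 2297, 2296 and 2354 TPM in those libraries and 2045 to 2182.5 TPM in the others, so that it set them apart as well. The ratio, which scaling does not change, of lid and regulators to core was 0.673 to 0.696 in them and 0.718 to 0.761 in the other libraries. The plots of summed TPM by group show the high libraries.

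**Figure D2:**
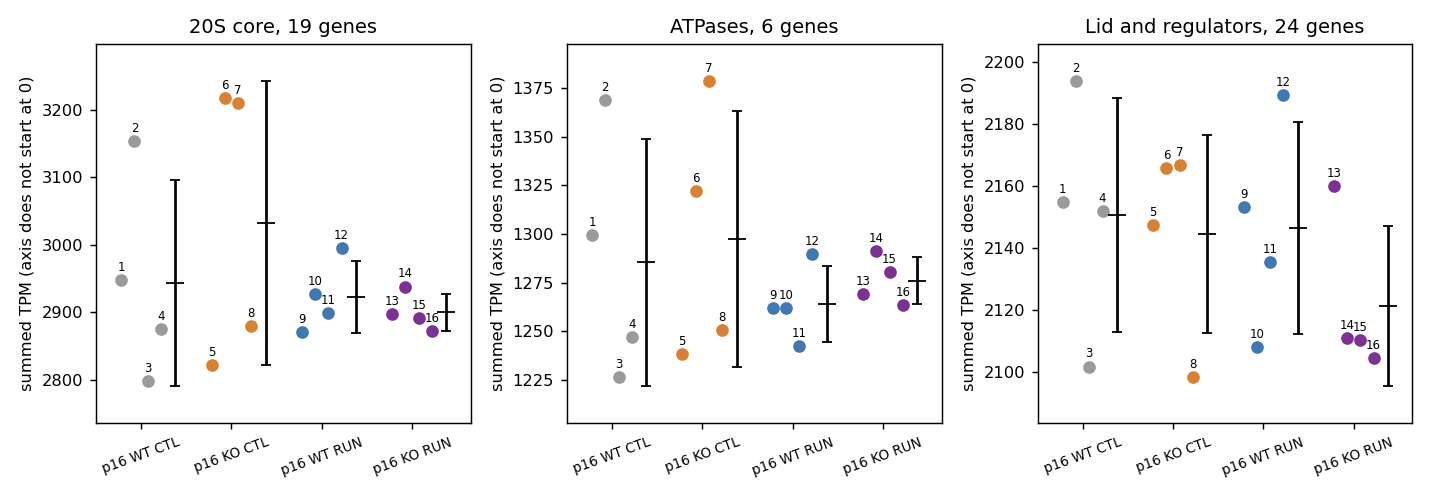
Summed TPM of the 20S core, the ATPases and the lid and regulators in each library (points, numbered by replicate) with the group mean ± SD (bars, n = 4); the axes do not start at 0. Replicates 2, 6 and 7 have the 3 highest values for the core and for the ATPases, and the groups overlap for all 3 sums.

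The members varied little between libraries of a group. The median SD within groups was 0.11 on the log2 scale over the 49 genes, against 0.19 over the 17317 genes tested and 0.12 over the 7248 genes in the same range of levels (20.7 to 305 TPM). The most even members were the lid subunit Psmd3 (SD 0.05) and the nuclear activator Psme3 (SD 0.06).

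The question of Sets A and C was what running changed in each genotype. In Set A, 7 of the 49 proteasome genes passed an unadjusted p under 0.05, the threshold of the study, in limma's moderated test. Psme4 was higher, and Psme1, Psme2, the lid subunit Psmd7, the base chaperones Psmd5 and Psmd9 and the alpha subunit Psma2 were lower in p16 KO RUN. Over all genes tested the share past this threshold was 18.5% (10.7% higher and 7.74% lower), so that the total of 7 was below the background share, while 6 of 49 lower was above the share of all genes that were lower. Leaving out p16 KO CTL replicate 5 raised the count to 18, where 27.4% of all genes passed. Leaving out p16 KO CTL replicate 6 (all genes 11.9%) or p16 KO RUN replicate 13 or 16 (all genes 13.2% in each) lowered it to 5. No member passed after Benjamini-Hochberg adjustment over all genes in Set A (0.0173% of all genes did). In Set C only Psme1 passed among the 49 (all genes 4.81%), and it was lower in p16 WT RUN (all genes lower 2.13%). The count was 2 without p16 WT CTL replicate 2 or 4 or p16 WT RUN replicate 12 (all genes 5.88%, 5.31% and 4.17% in that order).

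Of the PA28 genes, Psme1 was lower with running in both genotypes and Psme2 in knockout mice. Psme1 stood at 85.5, 96.0, 84.1 and 86.1 TPM in p16 WT CTL and at 94.9, 88.3, 85.5 and 84.6 TPM in p16 KO CTL. It stood at 74.3, 64.8, 77.3 and 74.1 TPM in p16 WT RUN and at 76.7, 69.9, 77.2 and 67.3 TPM in p16 KO RUN. Every running library was below every sedentary library, in both genotypes. On the log2(scaled TPM + 0.1) scale, on which all fold changes here are given, Psme1 fell by 0.35 (SE 0.06) in Set A, with an adjusted p of 0.103 by limma and an exact permutation p of 0.0286, the smallest that 4 against 4 libraries allow. In Set C it fell by 0.29 (SE 0.08, adjusted p = 0.937 by limma, exact permutation p = 0.0286). Over both genotypes the running effect was -0.32 (SE 0.05), or 0.802-fold, with an adjusted p of 0.0130 by limma. Its unadjusted p ranked 11 of 17317 genes, and Psme1 was the 1 proteasome gene among the 130 genes (0.751%) past the adjusted threshold there. The adjusted p ranged from 0.0114 to 0.121 over the alternatives of processing: it was 0.0898 with the nuclear RNA score of each library as a covariate and 0.121 without the 3 libraries low in nuclear RNA, at effects of -0.28 and -0.27. With 1 library left out it ran from 0.0136 to 0.0403. The running effect on Psme1 did not differ detectably between genotypes, with an interaction of -0.06 (SE 0.10, adjusted p = 0.898 by limma).

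Psme2 measured 50.6, 52.5, 45.6 and 41.9 TPM in p16 WT CTL against 40.9, 43.5, 46.5 and 35.7 TPM in p16 WT RUN, and these libraries overlapped. In p16 KO CTL it measured 50.2, 48.8, 51.3 and 49.02 TPM against 44.1, 36.8, 41.4 and 41.6 TPM in p16 KO RUN, with no overlap. The log2 change was -0.35 (SE 0.06, adjusted p = 0.114 by limma, exact permutation p = 0.0286) in Set A. In Set C it was -0.21 (SE 0.11, exact permutation p = 0.171) and did not pass the unadjusted threshold, which it passed only without p16 WT CTL replicate 4 (-0.28) when 1 library was left out. Over both genotypes it was -0.28 (SE 0.07), with an adjusted p of 0.0624 by limma. Summed, both PA28 subunits made up 136 ± 9.26 TPM in p16 WT CTL and 138 ± 4.89 in p16 KO CTL, and after running they made up 114 ± 6.99 (p16 WT RUN) and 114 ± 7.00 (p16 KO RUN) (SD, n = 4). Relative to the summed core this was a ratio of 0.0426 to 0.0514 in the sedentary and 0.0363 to 0.0427 in the running libraries, 2 ranges that overlapped only slightly. The near-identical copy Psme2b, which could share reads with Psme2 and whose own level is therefore uncertain, lay at 1.96 to 4.56 TPM and passed in no comparison.

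Psme3, which forms the related homomeric cap of the nucleus, did not follow. It measured 129.5, 123, 119.9 and 122 TPM in p16 WT CTL and 117, 119.97, 117 and 123 TPM in p16 KO CTL. With running the values were 124, 119, 121 and 120.3 TPM in p16 WT RUN and 123, 118, 119 and 117 TPM in p16 KO RUN. Its log2 change was -0.07 (SE 0.05) in Set A and -0.04 (SE 0.05) in Set C. The groups overlapped, and Psme3 passed in no comparison.

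Psme4 went the other way. It measured 22.3, 14.7, 15.3 and 20.6 TPM in p16 KO CTL and 24.2, 27.1, 24.3 and 25.0 TPM in p16 KO RUN, which did not overlap. In wild-type mice it measured 24.6, 18.4, 24.1 and 25.9 TPM in p16 WT CTL and 25.9, 27.9, 24.8 and 23.6 TPM in p16 WT RUN, which did overlap. The log2 change was 0.42 (SE 0.12, adjusted p = 0.179 by limma, exact permutation p = 0.0286) in Set A. It was 0.13 (SE 0.10) in Set C, which did not pass, and 0.28 (SE 0.08, adjusted p = 0.110 by limma) over both genotypes. The lowest 3 values belonged to the libraries low in nuclear RNA. Without those libraries the Set A change was 0.21 and that over both genotypes 0.13, both still past the unadjusted threshold by limma. The genotype difference in this running effect was 0.29 (SE 0.16, adjusted p = 0.797 by limma), which did not pass. It ran from 0.14 to 0.34 over the alternatives of processing and from 0.20 to 0.37 with 1 library left out. Only without p16 WT CTL replicate 2 or p16 KO CTL replicate 5 or 8 did it pass the unadjusted threshold.

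The inhibitor Psmf1, also called PI31, measured 22.5, 20.1, 12.5 and 20.5 TPM in p16 WT CTL and 20.9, 19.3, 20.8 and 21.0 TPM in p16 KO CTL. After running its values were 21.8, 23.0, 21.1 and 21.5 TPM in p16 WT RUN and 22.1, 21.1, 18.9 and 23.6 TPM in p16 KO RUN. Apart from the low p16 WT CTL replicate 3 it was level across the groups, and it passed in no comparison.

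**Figure D3:**
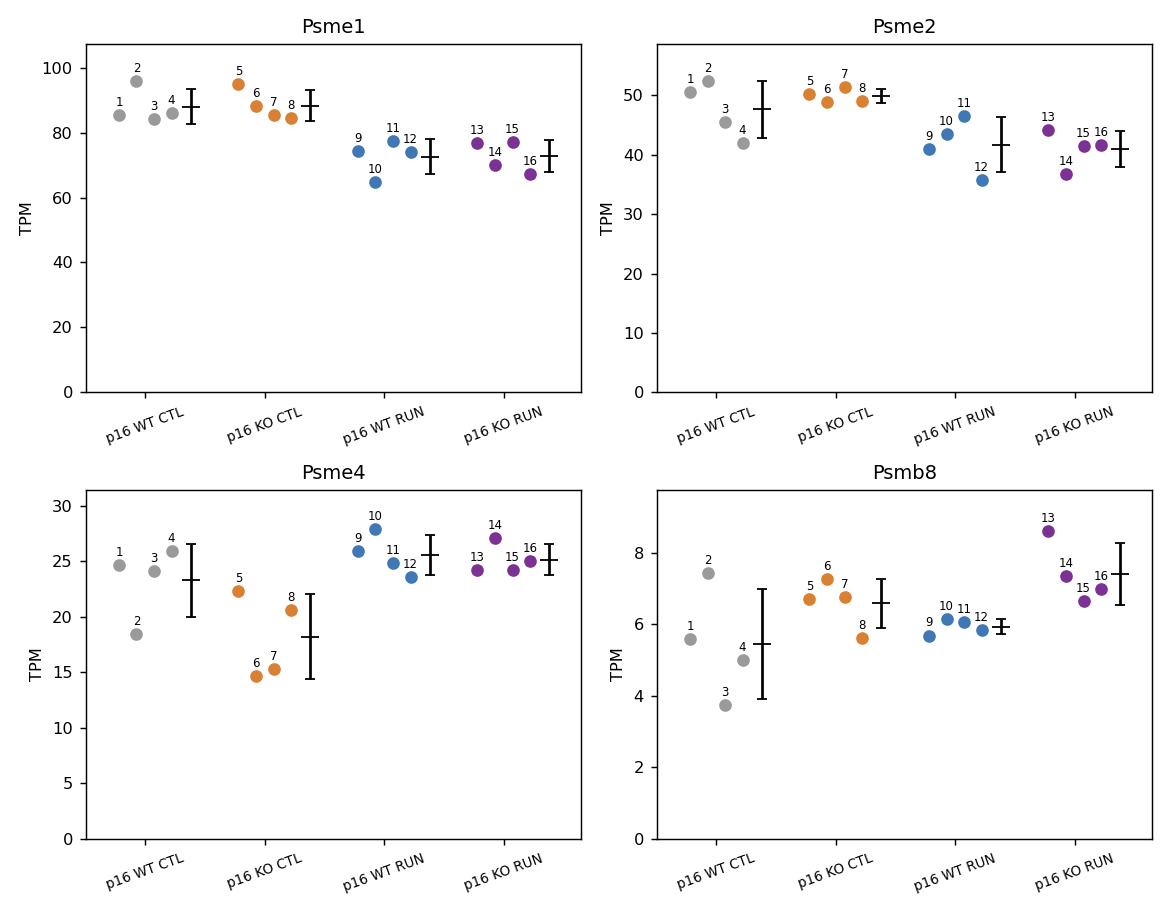
TPM of Psme1, Psme2, Psme4 and Psmb8 in each library (points, numbered by replicate), with the group mean ± SD (bars, n = 4); axes start at 0. Psme1 lies at 84.1 TPM or more in the sedentary and at 77.3 TPM or less in the running libraries, and Psme4 is lowest in replicates 2, 6 and 7.

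In the regulatory particle, Psmd7, a lid subunit that partners the deubiquitinase Psmd14, measured 172, 171, 169 and 168 TPM in p16 KO CTL and 165, 151, 158 and 154 TPM in p16 KO RUN, with no overlap. The drop was small, with a log2 change of -0.18 (SE 0.05, adjusted p = 0.170 by limma, exact permutation p = 0.0286). In Set C the change was -0.07 (SE 0.06). Psmd5 measured 65.04, 68.0, 67.7 and 64.4 TPM in p16 KO CTL and 64.0, 56.9, 63.2 and 54.2 TPM in p16 KO RUN, again without overlap, for a log2 change of -0.22 (SE 0.07, adjusted p = 0.211 by limma). Psmd9 passed narrowly in Set A (-0.18, SE 0.08, adjusted p = 0.265 by limma) although its groups overlapped, and its call was lost, at -0.18 to -0.13, without any 1 of p16 KO CTL replicates 5 and 6 and p16 KO RUN replicates 13, 15 and 16. Of the other 11 Psmd genes none passed in any of Sets A to E, among them the ubiquitin receptor Psmd4 (182 to 210 TPM over all libraries) and the deubiquitinase Psmd14 (128 to 144 TPM).

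In the core, Psma2 measured 221, 258, 249 and 215 TPM in p16 KO CTL and 218, 206, 206 and 222 TPM in p16 KO RUN. These deposited values overlapped, although the scaled values used for the tests did not. Its Set A change was -0.21 (SE 0.08, adjusted p = 0.251 by limma), a call kept only without p16 KO CTL replicate 5 or 8 and lost, at -0.22 to -0.15, without any of the other 6 libraries. None of the 6 ATPases passed in Set A, and Psmc5 was the 1 ATPase to pass over both genotypes (-0.13, SE 0.05, adjusted p = 0.237 by limma), a call kept in 10 of the 16 fits that left out 1 library (-0.15 to -0.10) and lost with the nuclear RNA score as a covariate (-0.06) and without the 3 libraries low in nuclear RNA (-0.05). Over both genotypes 7 of the 49 genes passed the unadjusted threshold (all genes 17.9%), Psme4 upward (all genes 9.87%) and Psme1, Psme2, Psmd7, Psmd5, Psmc5 and Psma2 downward (all genes 8.02%). Without p16 KO CTL replicate 5 the count was 15 (all genes 24.1%). It was 11 without p16 KO CTL replicate 8 (all genes 19.9%) and 10 without p16 WT CTL replicate 3 (all genes 19.8%). Without p16 KO CTL replicate 7 it was 5 (all genes 13.5%). The balance of directions over both genotypes was not kept. With the nuclear RNA score as a covariate 3 members were higher (Psme4, Psmb8 and the ATPase Psmc2) and 3 lower (Psme1, Psme2 and Psmd7), where 9.07% of all genes passed. Without the 3 libraries low in nuclear RNA the same 3 were lower, and Psmb3 was higher beside Psme4, Psmb8 and Psmc2 (all genes 9.29%). Psma2, Psmc5 and Psmd5 did not pass in either fit. In Set A, Psma2, Psmd5 and Psmd9 no longer passed with the nuclear RNA score, and the members that passed were Psme1, Psme2 and Psmd7 downward and Psme4 upward (all genes 9.49%). Without the 3 libraries these 4 passed in the same directions together with the alpha subunit Psma4, which was higher (all genes 8.49%).

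Groups that did not overlap at all, for which the exact permutation test gives its smallest p of 0.0286, were found in Set A for 6 of the 49 genes (Psma2, Psmd5, Psmd7, Psme1, Psme2 and Psme4; all genes 10.4%). In Set C this was so for 1 (Psme1; all genes 3.34%). Both shares are near or below the background, and overlap was judged on the scaled values.

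Most single changes in Set A were small and did not pass. Of the 49 genes, 42 had a negative and 7 a positive change, where 53.2% of all genes were positive, and their median log2 change was -0.10, against 0.02 over all genes tested, with the 19 core genes at a median of -0.12, the 6 ATPases at -0.09 and the 24 lid and regulator genes at -0.08. Cytosolic ribosomal protein genes (median -0.27, 47 of 80 lower past the threshold) and nuclear-encoded subunits of oxidative phosphorylation (median -0.18, 26 of 83 lower) moved further in the same direction. The summed ribosomal genes were at 66399 and 62345 TPM in p16 KO CTL replicates 6 and 7, low in nuclear RNA. They were at 52433 and 50440.5 TPM in p16 KO CTL replicates 5 and 8. The median of the proteasome genes turned to 0.01 both with the nuclear RNA score as a covariate and without the 3 libraries low in nuclear RNA, where that of all genes was 0.00. In Set C the median was -0.02 (all genes 0.00), with 20 positive and 29 negative changes. It turned to 0.02 without p16 WT CTL replicate 2, the library of this set low in nuclear RNA, and to 0.003 with the nuclear RNA score. Sets A and C share no library, and 32 of the 49 genes (65.3%) had the same sign in both, against 61.5% of all genes. Beside these values stand markers of other cells in Set A: all 7 microglia markers and all 6 oligodendrocyte markers had negative changes (2 and 4 past the threshold, where 7.74% of all genes were lower), with summed microglia markers at 470 to 669 TPM in p16 KO CTL and 438 to 523 TPM in p16 KO RUN. All 6 astrocyte markers also had negative changes, with Gja1 (-0.41) and Slc1a3 (-0.34) past the threshold. In p16 KO CTL replicates 6 and 7, low in nuclear RNA, summed microglia markers were at 669 and 630 TPM and astrocyte markers at 3024 and 2954 TPM. In p16 KO CTL replicates 5 and 8 they were at 480 and 470 TPM and at 2285 and 1987 TPM. Summed oligodendrocyte markers did not split this way, with 1587 TPM in replicate 6 and 2426 TPM in replicate 8. Of the interneuron markers Pvalb was lower (-0.52) and Vip higher (0.33), and all 5 endothelial markers had positive changes, with Pecam1 past the threshold (0.53). Summed endothelial markers were at 61.1 and 63.5 TPM in p16 KO CTL replicates 6 and 7 and at 118 and 122 TPM in replicates 5 and 8. All 4 CA1 pyramidal markers had negative changes, with Pou3f1 past the threshold (-1.31), and all 6 granule neuron markers had positive ones, none of them past it. Summed CA1 markers were at 265 TPM in p16 KO CTL replicate 8 and at 68.1 to 151 TPM in the other libraries, and summed choroid plexus markers at 212 TPM in p16 KO CTL replicate 7 and at 16.9 to 62.0 TPM in the others. In Set C the markers Fibcd1 of CA1 (0.83) and Gad1 of interneurons (0.17, without overlap) were higher past the threshold. Their part in the proteasome values was not tested.

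**Figure D4:**
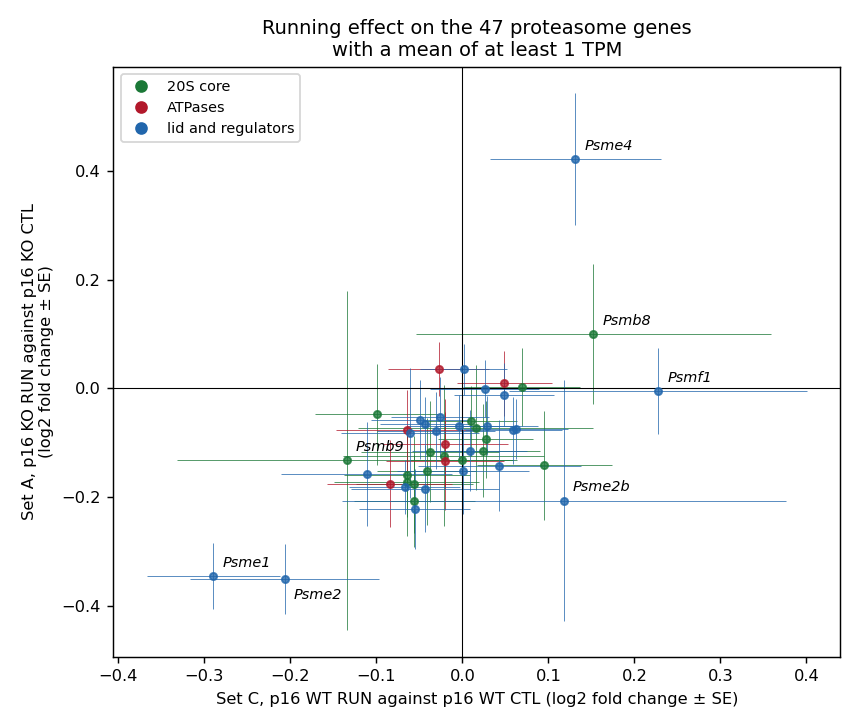
Log2 fold change with running (± SE) in knockout mice (Set A, vertical) against wild-type mice (Set C, horizontal) for the 47 proteasome genes whose mean is 1 TPM or more, coloured by class. Psme1 and Psme2 lie apart at the lower left and Psme4 at the top, while the other genes cluster below 0 in Set A and around 0 in Set C.

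**Figure D5:**
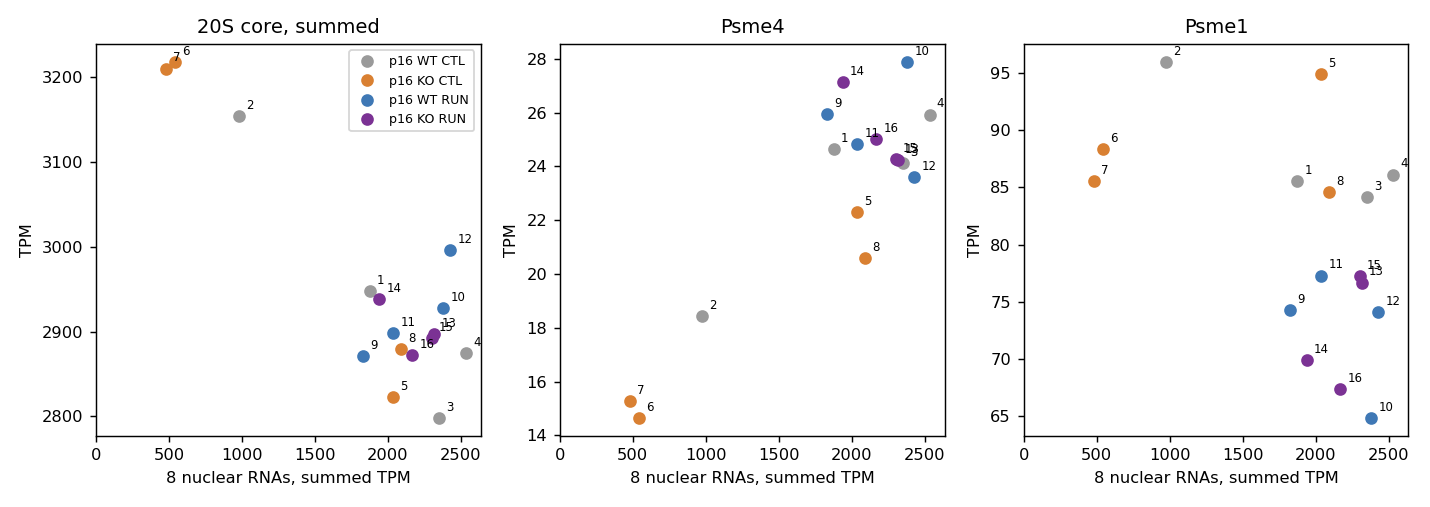
Summed TPM of the 20S core and TPM of Psme4 and Psme1 against the summed TPM of 8 nuclear RNAs, 1 point per library, coloured by group and numbered by replicate; the vertical axes do not start at 0. Replicates 2, 6 and 7, at 479 to 977 TPM of nuclear RNA, are highest for the core and lowest for Psme4, whereas Psme1 is lower in the running libraries among those with similar nuclear RNA.

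Sets B and E asked what the loss of p16 changed in sedentary and in running mice. In Set B none of the 49 genes passed an unadjusted p under 0.05 in limma's test (all genes 6.69%), and none had groups without overlap (all genes 2.70%). Without p16 WT CTL replicate 2 the count past the threshold was 6 (all genes 17.5%), and without p16 KO CTL replicate 5 it was 2 (all genes 13.5%). When p16 WT CTL replicate 1 (all genes 3.51%) or p16 KO CTL replicate 8 (all genes 9.60%) was left out, 1 gene passed. The changes were mostly of one sign: 45 of 49 were positive, against 47.8% of all genes, with a median of 0.09 (all genes -0.01). Without the 3 libraries low in nuclear RNA, of which 2 are p16 KO CTL libraries, the median was 0.03. It was -0.001 with the nuclear RNA score as a covariate. Markers of other cells past the threshold in Set B were all higher: Pou3f1 of CA1 (1.53, without overlap), Pvalb (0.58) and Vip (0.46) of interneurons, Gfap (0.45) of astrocytes, Cnp (0.41) of oligodendrocytes, and P2ry12 and Tmem119 of microglia. All 6 granule neuron and all 5 endothelial markers had negative changes, none of them past the threshold. Their part in the proteasome values was not tested. Psme1 and Psme2 were at 0.07 (SE 0.07) and 0.13 (SE 0.10), and Psme4 at -0.30 (SE 0.14). With 1 library left out they ran from 0.04 to 0.13, 0.06 to 0.20 and -0.39 to -0.22 in that order. Psme1 and Psme2 then passed the unadjusted threshold only without p16 WT CTL replicate 2. Psme4 passed without that library or without p16 KO CTL replicate 5 or 8. Over the 12 alternatives of processing the Psme4 change ran from -0.36 to -0.14 and passed under 1.

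In Set E, 2 of the 49 genes passed (all genes 3.87%), both upward (all genes 2.11%): the immunoproteasome subunit Psmb8 and Psma4. Psmb8 (chr17:34198195-34201454, plus strand), the interferon-inducible counterpart of the chymotrypsin-like subunit Psmb5, measured 5.68, 6.15, 6.06 and 5.83 TPM in p16 WT RUN and 8.61, 7.34, 6.65 and 6.97 TPM in p16 KO RUN. It was the 1 member whose groups did not overlap in Set E (all genes 2.46%). The log2 change was 0.32 (SE 0.10, adjusted p = 1 by limma, exact permutation p = 0.0286). In sedentary mice Psmb8 measured 5.58, 7.43, 3.73 and 5.01 TPM in p16 WT CTL and 6.70, 7.25, 6.76 and 5.62 TPM in p16 KO CTL, which overlapped, and the Set B change was 0.37 (SE 0.22, exact permutation p = 0.200). With 1 library left out this change ran from 0.19 to 0.55. It then passed the unadjusted threshold only without p16 WT CTL replicate 2. Over both treatments the genotype effect was 0.34 (SE 0.12, adjusted p = 0.674 by limma), and it kept passing the unadjusted threshold when any 1 of the 16 libraries was left out (0.25 to 0.43). Psma4 rose only narrowly in Set E (0.13, SE 0.06, exact permutation p = 0.114), from 162, 167, 166 and 191 TPM in p16 WT RUN to 194, 178, 185 and 191 TPM in p16 KO RUN, with overlapping groups. When 1 library was left out its call held only without p16 WT RUN replicate 12 (0.19). The count of 2 became 3 without p16 WT RUN replicate 12 (all genes 6.05%), stayed at 2 without p16 WT RUN replicate 11 and was 1 without any of the other libraries. With all 16 libraries in 1 fit neither gene passed in Set E.

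The other immunoproteasome subunits did not follow Psmb8 past the threshold. Psmb9 measured 3.81, 3.76, 2.90 and 3.45 TPM in p16 WT CTL and 2.27, 3.47, 5.81 and 4.29 TPM in p16 KO CTL. The running libraries had 4.02, 3.31, 3.39 and 2.25 TPM in p16 WT RUN and 2.89, 5.00, 3.83 and 2.93 TPM in p16 KO RUN. Psmb10, the most abundant of the 3, measured 36.2, 40.8, 29.7 and 33.0 TPM in p16 WT CTL and 32.7, 32.7, 39.7 and 40.2 TPM in p16 KO CTL. With running the values were 34.4, 39.7, 29.9 and 38.3 TPM in p16 WT RUN and 34.5, 38.9, 39.3 and 31.8 TPM in p16 KO RUN. The groups overlapped for both genes. Their Set E changes were 0.17 (SE 0.23) for Psmb9 and 0.03 (SE 0.11) for Psmb10. Markers of lymphocytes and natural killer cells summed to at most 1.06 TPM in any library, with only 2 of 6 past the filter on low values, and microglia markers summed to 459 to 528 TPM in p16 WT RUN and 438 to 523 TPM in p16 KO RUN. Of the 7 microglia markers, P2ry12 was higher in Set E (0.22, SE 0.08), and 3 of the 7 changes were positive. Of the other marker lists, Pecam1 of endothelium (0.26) and Tcf7l2 of thalamus and habenula (0.46) were higher in Set E without overlap. Folr1 of choroid plexus was higher (1.63), at low means of 0.453 TPM in p16 KO RUN and 0.0472 TPM in p16 WT RUN. Aqp4 of astrocytes (-1.61) and Fibcd1 of CA1 (-0.54) were lower. In Set B all 7 microglia markers were positive, with P2ry12 (0.51, SE 0.20) and Tmem119 (0.42, SE 0.13) past the threshold, as both were for genotype over both treatments (0.36 and 0.23). Their part in the Psmb8 values was not tested.

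The constitutive catalytic subunits were far higher. The chymotrypsin-like Psmb5 measured 292, 310.1, 226 and 269.7 TPM in p16 WT CTL and 229, 235, 266 and 293 TPM in p16 KO CTL. After running its values were 273, 291, 284 and 238 TPM in p16 WT RUN and 278, 229, 278 and 201 TPM in p16 KO RUN. The caspase-like Psmb6 measured 245, 286, 248 and 250.4 TPM in p16 WT CTL and 253, 289, 297 and 245 TPM in p16 KO CTL. The running libraries had 243, 254, 246 and 268 TPM in p16 WT RUN and 250.2, 266, 272 and 256 TPM in p16 KO RUN. The trypsin-like Psmb7 measured 270.2, 309, 266 and 259 TPM in p16 WT CTL and 260.3, 317, 333 and 282 TPM in p16 KO CTL. With running the values were 256, 271, 257 and 279 TPM in p16 WT RUN and 275, 275, 268 and 285 TPM in p16 KO RUN. None of these 3 genes passed in any comparison, and their groups overlapped throughout. Psmb8, Psmb9 and Psmb10 together made up 5.13 ± 0.337% (SD, n = 4) of the summed TPM of the 6 catalytic genes in p16 WT CTL and 5.37 ± 0.355% in p16 KO CTL, and after running they made up 5.36 ± 0.412% (p16 WT RUN) and 5.68 ± 0.412% (p16 KO RUN), and the ranges of the groups overlapped.

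Over both treatments, 2 of the 49 genes passed for genotype (all genes 7.12%), Psmb8 and Psma8, both upward (all genes 3.87%). The count was 6 without p16 WT CTL replicate 2 (all genes 15.7%) or p16 KO CTL replicate 5 (all genes 13.7%). Without p16 KO CTL replicate 8 it was 4 (all genes 10.7%). It was 1 when any of p16 WT CTL replicates 3 and 4, p16 WT RUN replicates 9 and 10 and p16 KO RUN replicate 13 was left out. Psma8 had a log2 change of 1.18 (SE 0.48, adjusted p = 0.674 by limma) at levels of at most 0.620 TPM, and its change was 0.23 and no longer passed with a pseudocount of 1. With the nuclear RNA score as a covariate it was 1.05 and did not pass either. Over the alternatives of processing the Psma8 change ran from 0.23 to 2.96. It passed in 9 of the 16 fits that left out 1 library (1.00 to 1.53 over the 16). Beside P2ry12 and Tmem119, the markers Vip (0.40), Tcf7l2 (0.34) and Folr1 (1.56) were higher for genotype over both treatments. Cd3e of lymphocytes was lower (-0.85). The part of these markers in the proteasome values was not tested. In Set D, which contrasts running knockout with sedentary wild-type mice, 3 of the 49 genes passed (all genes 8.63%), all lower (all genes 3.66%): Psme1 (-0.28, SE 0.08), Psmd9 (-0.17, SE 0.07) and Psme2 (-0.22, SE 0.10), with adjusted p-values of 0.341, 0.570 and 0.575 by limma. The count was 1 without p16 KO RUN replicate 15 or 16, and Psmd9 and Psme2 each passed in 3 of 8 fits that left out 1 library. Both lost their calls with the nuclear RNA score as a covariate (-0.12 and -0.15) and without p16 WT CTL replicate 2, the library of this set low in nuclear RNA (-0.11 and -0.15). With the score the direction turned, as 4 members were higher (Psmb2, Psmb3, Psmb8 and Psmc2) and only Psme1 lower (all genes 13.4%). Among the 49, only Psme1 had groups that did not overlap there (all genes 5.68%). Of the marker lists, Vip of interneurons (0.79, without overlap) and Gfap of astrocytes (0.42) were higher and the blood gene Hbb-bs lower (-3.75) in Set D, and their part in the proteasome values was not tested. In the interaction of running with genotype none of the 49 genes passed (all genes 5.48%). The count was 5 without p16 KO CTL replicate 5, where 11.4% of all genes passed. It was 3 without p16 WT CTL replicate 2 (all genes 13.7%) and 2 without p16 KO CTL replicate 8 (all genes 7.85%). The full fit had 43 of 49 changes negative and a median of -0.09 (all genes 0.02), which was -0.03 without the 3 libraries low in nuclear RNA. With the nuclear RNA score as a covariate the median was -0.002. The markers Pou3f1 (-1.76) and Fibcd1 (-1.28) of CA1, Pvalb (-0.75) and Cnp (-0.49) also had negative interactions past the threshold. Whether they bear on the proteasome values was not tested.

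Genes around the proteasome were taken from lists of the pathway, and their counts stand beside shares over all genes of 10.7% higher and 7.74% lower in Set A and of 6.69% and 4.81% past the threshold in Sets B and C. Of 6 genes for ubiquitin and its activating enzymes, the ubiquitin and ribosomal fusion gene Rps27a was lower in Set A (-0.33, SE 0.12). Of 10 shuttle and unfoldase genes, the ubiquitin receptors Sqstm1 (-0.17, SE 0.06) and Ubqln1 (-0.12, SE 0.05) were lower in Set A. Of 9 proteins that bind the proteasome, Shfm1, the older name of the lid subunit gene Sem1, was lower (-0.22, SE 0.08) and AI314180, the older name of the adaptor gene Ecpas, higher (0.15, SE 0.06) in Set A. Of 7 genes for the transcription of proteasome genes, which include the factor Nfe2l1, none passed in Sets A or B, and the protease Ddi2, which activates that factor, was higher in Set C (0.29, SE 0.08).

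Of 13 genes of interferon signalling and antigen presentation, 3 were higher and 2 lower in Set A, where 10.7% of all genes were higher and 7.74% lower. The transcription factor Irf7 (1.16, SE 0.35), the signal transducer Stat2 (0.36, SE 0.11) and the MHC class I transactivator Nlrc5 (1.09, SE 0.35) were higher. Nlrc5 had means of only 0.308 TPM in p16 KO RUN and 0.0812 TPM in p16 KO CTL. These lie near the pseudocount of 0.1, on which the size of its change depends. The peptide transporter subunit Tap2 (-0.28, SE 0.07) and the MHC light chain B2m (-0.21, SE 0.09) were lower, as were Psme1 and Psme2. In Set B the MHC heavy chain gene H2-K1 was the 1 gene of this list past the threshold (0.24, SE 0.09; all genes 6.69%). In Set E, where Psmb8 was higher, H2-D1 (0.22, SE 0.07), H2-K1 (0.21, SE 0.07) and B2m (0.10, SE 0.04) were higher, each without overlap, and none of the 13 was lower (all genes 2.11% higher). The same 3 genes were higher for genotype over both treatments (0.22, 0.23 and 0.16; all genes 3.87% higher). H2-K1 and H2-D1 are alike in sequence and could share reads. The list median was -0.01 in Set A (all genes 0.02).

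Psmc3ip, the gene matched by name only, behaved unlike the proteasome genes. It ranged from 5.58 to 49.4 TPM over the libraries, with 18.1, 49.4, 45.5 and 11.7 TPM in p16 KO CTL and 5.99, 5.58, 17.1 and 13.8 TPM in p16 WT CTL. Its level was highest in p16 KO CTL replicates 6 and 7, which are low in nuclear RNA, and lowest in p16 WT CTL replicate 2, which is low in nuclear RNA as well. Leaving out these 3 libraries thus removes both the highest values and the lowest. The Set B change was 1.53 (SE 0.54, adjusted p = 0.625 by limma), and without the 3 such libraries it was 0.41 and did not pass. The call was also lost, at 1.22 to 1.31, without p16 WT CTL replicate 1 or 2 or p16 KO CTL replicate 6 or 7. Psmc3ip was also higher in Set D (0.85, SE 0.33, adjusted p = 0.521 by limma), which holds neither of those p16 KO CTL libraries, and for genotype over both treatments (0.97, SE 0.39, adjusted p = 0.674 by limma). Without the 3 libraries these changes were 0.63 and 0.41, and neither passed. The Set D call was also lost without p16 WT CTL replicate 1 or p16 KO RUN replicate 13 or 15. With 1 library left out that change ran from 0.63 to 1.12. It did not pass either with no filter or with all libraries in 1 fit. The genotype call was kept in 10 of the 16 fits that left out 1 library (0.78 to 1.18) and lost with the nuclear RNA score.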

How the data were processed

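RNA of the dentate gyrus was sequenced in 16 libraries of 2 pooled mice. According to the study's methods and the submitters' processing notes, the authors masked adapters with cutadapt 1.11, aligned reads with STAR to the mm10 build and quantified genes with StringTie. The deposited TPM values are corrected for gene length and scaled to 1 total per library. The deposited FPKM values come from the same run and served as an alternative, and the coverage values deposited by the authors gave relative depth only. The tables hold no counts, so limma took the place of the count test of the study, and the counting error is not known.

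TPM of entries with 1 gene name was summed. Levels are deposited TPM. For tests, libraries were scaled by median ratio (13226 genes at 1 TPM or more in all 16), and log2(scaled TPM + 0.1) of 17317 genes was fitted with limma 3.58.1 in R 4.3.3, with a variance trend and Benjamini-Hochberg adjustment over all genes, two-sided, on the 8 libraries of each set or on all 16. Exact permutation p-values are two-sided over 4 against 4 libraries, and overlap was judged on scaled values. Scripts were tested on simulated data.

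Named in full were the catalytic core subunits Psmb5 to Psmb10, the activators and inhibitor Psme1 to Psme4 and Psmf1, and the up to 6 members of smallest p under 0.05 in each comparison. Genes of the pathway lists were named if they passed in Set A or B, up to 4 per list, of which 1 is not reported here; Ddi2, B2m, H2-K1, H2-D1 and the genes of the marker lists were named after their values were seen. The members and lists were chosen with earlier results of these data known. Alternatives were the filter, the pseudocount, the scaling, FPKM, all libraries in 1 fit, no variance trend, the highest entry per name, the nuclear RNA score as a covariate and each library left out. The fit without the 3 libraries low in nuclear RNA was added after seeing the data.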

Additional observations from a re-analysis of the deposited data

Results flagged for a closer look

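Of 88 groups of 4 libraries tested (22 genes and sums), 7 held a value that lay so far from the other 3 that the gap took up most of the group's range (Dixon's test). Chance marks about 1 in 20 groups, and no explanation was tested. In p16 WT CTL replicate 2, Psmb6 was at 286 TPM (others 245 to 250.4 TPM) and Psme1 at 96.0 TPM (others 84.1 to 86.1 TPM). In p16 KO CTL, Psmf1 was at 19.3 TPM in replicate 6 (others 20.8 to 21.0 TPM) and Psmc5 at 351 TPM in replicate 7 (others 305 to 312 TPM). In p16 WT RUN replicate 11, Psma8 was at 0.620 TPM and listed at 0 in the others. In p16 KO RUN, Psmd9 was at 27.6 TPM in replicate 14 (others 25.7 to 26.0 TPM), and the sum of the lid and regulators was 2160 TPM in replicate 13 (others 2104 to 2111 TPM). No proteasome gene passed the test of a difference between the running effects of the genotypes.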

How the results depend on the processing

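Of 1044 refits of 46 gene results under the alternatives and with 1 library left out, 903 kept direction and side of the threshold of p under 0.05, 104 lost it, 24 gained it and 13 changed sign. Psme1, Psme2, Psmd7 and Psme4 kept their Set A calls in all of them. The count of members past the threshold was 1 in Set B with quantile normalization or all libraries in 1 fit, 2 in Set C with all libraries in 1 fit or without the 3 libraries low in nuclear RNA, and in Set E 1 with no filter, with TPM as deposited or with no variance trend and 0 with all libraries in 1 fit. With the nuclear RNA score it was 4 in Set A, 5 in Set D (4 of them higher) and 1 for genotype over both treatments. In Set D it was 1 with no variance trend, and for genotype it was 1 with a mean of at least 1 TPM, with a pseudocount of 1 or with FPKM. The summed lid and regulators of p16 KO CTL were 2231 TPM when scaled. The causes were not tested.

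With 1 library left out, the counts ran from 5 to 18 (Set A), 0 to 6 (Set B), 1 to 2 (Set C), 1 to 4 (Set D), 1 to 3 (Set E), 5 to 15 (running), 1 to 6 (genotype) and 0 to 5 (interaction). The share of all genes past the threshold moved as well. It was 27.4% at the count of 18 in Set A and 17.5% at that of 6 in Set B. The summed core ran from 2874 to 2992 TPM in p16 WT CTL, 2971 to 3102 in p16 KO CTL, 2899 to 2941 in p16 WT RUN and 2887 to 2909 in p16 KO RUN. The ATPases ran from 1258 to 1305, 1270.2 to 1317, 1255 to 1271 and 1271 to 1280.14 TPM in the same order. The lid and regulators ran from 2136 to 2167, 2137 to 2160, 2132 to 2159 and 2108 to 2127 TPM.

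Signs changed only for values that did not pass: Psmb8, log2 fold change, Set C (-0.022 to 0.338), Psme1, Psme2 and Psme4 in Set E (-0.0326 to 0.0546, -0.0807 to 0.0338 and -0.0603 to 0.0379), each with 1 library left out, and Psmb8 in the interaction (-0.238 to 0.122 with 1 library left out and 0.121 with the nuclear RNA score). No paired analysis was possible because the replicate numbers 1 to 16 are not shared between groups. Depth could limit the genes under 1 TPM, Psma8 and Psmb11, which was not tested. The tables give no counts from which counting error could be had.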

Other observations

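Both the COP9 signalosome and the CCT chaperonin, other multi-subunit complexes of protein turnover and folding, were measured beside the proteasome. Of the 9 tested genes of the COP9 signalosome, which shares its architecture with the proteasome lid, Cops6 was lower (-0.23, SE 0.09) and Cops7b higher (0.19, SE 0.07) in Set A, and the list median was -0.13 (all genes 0.02). Over all genes 10.7% were higher and 7.74% lower in Set A. Of the 8 genes of the CCT chaperonin, which folds actin and tubulin, Cct4 (-0.18, SE 0.06) and Tcp1 (-0.18, SE 0.07) were lower in Set A, with a list median of -0.10. In Set C no gene of either list passed the unadjusted threshold by limma.

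Around Psme1 and Psme2, 18 other genes within 100 kb were tested. In Set A, 2 were higher and 3 lower (all genes 10.7% and 7.74%). Fitm1 was higher (1.89, SE 0.52), as was Tssk4 (1.14, SE 0.48), both at low levels. The means in p16 KO RUN and p16 KO CTL were 1.07 and 0.260 TPM for Fitm1 and 0.676 and 0.291 TPM for Tssk4. Mdp1, a phosphatase gene (-0.17, SE 0.06), Nedd8, which encodes a ubiquitin-like modifier (-0.23, SE 0.10), and Pck2 (-0.31, SE 0.13) were lower. In Set C none was higher and 2 were lower (all genes 2.13%), Mdp1 (-0.16, SE 0.07) and Cpne6 (-0.15, SE 0.06). These neighbours were chosen by position alone.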
